A study of Mus musculus with 6 samples.

Results

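The glycolysis module of the mouse kidney comprises 37 genes that encode glucose transporters, the glycolytic enzymes with their isozymes, lactate enzymes and carriers, and the pyruvate dehydrogenase kinases. The members were taken by symbol from a given list. Of 32285 gene IDs in the table of counts, 37 matched the 37 listed genes, and 37 of 37 passed the filter on low counts. RNA-seq had been made from whole kidneys of female mice aged 100 weeks with mutated TrnE, which is the glutamate tRNA gene of mitochondrial DNA. The load of a kidney is the share of its mitochondrial DNA copies, in percent, that carry the mutation. High-load 1 to 3 are the 3 kidneys at 75%, 75% and 80%. Control 1 to 3 are the 3 kidneys at 10%, 5% and 15%, so the controls carried the mutation as well. The labels name neither the strain nor any other allele. The labels give each library a code of its own but do not state that each came from a different animal. The p-values therefore measure the spread between these samples, which may be technical.

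Glycolysis splits glucose into pyruvate in the cytosol. Most of its steps can be carried out by more than 1 enzyme form, and the forms differ between tissues in kinetics and regulation. Pyruvate then enters mitochondria for oxidation by the pyruvate dehydrogenase complex, which the pyruvate dehydrogenase kinases switch off, or it is reduced to lactate. In the kidney the proximal tubule makes glucose and burns mainly fatty acids and other oxidative fuels, while distal segments and the medulla use glycolysis more. Mitochondrial tRNAs serve the translation of the respiratory chain subunits encoded in mitochondrial DNA.

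Total counts were 18090197 to 18613697 in the high-load libraries and 17449270 to 18865997 in the controls. Mitochondrially encoded genes took 10.4% to 15.9% of counts in high-load libraries and 9.91% to 11.6% in controls. The summed level of 15 proximal tubule markers was 5051, 24347 and 13711 CPM (read counts brought to a common library size) in high-load 1 to 3, against 22598, 24862 and 29986 CPM in control 1 to 3. High-load 1 stood apart from the other 5 kidneys in that sum. It also stood apart in the sum of 5 urothelium markers, 208 CPM against 1.61 to 40.1 CPM in the other 5 kidneys. For 10 T, NK and B lymphocyte markers the sum was 232 CPM in high-load 1, against 22.8 to 70.8 CPM in the other 5 kidneys. Of 10 injured tubule markers, 9 were higher at an unadjusted p below 0.05 by edgeR's quasi-likelihood test, with sums of 5950.0 to 12168 CPM in high-load kidneys and 2815 to 4129.8 CPM in controls. Of 10 macrophage and dendritic cell markers, 9 were higher in the same way. Their sums were 783 to 1503 CPM in high-load kidneys and 466 to 581 CPM in controls. Of 7 proliferating cell markers, 7 were higher in the same way. Their sums were 54.1 to 76.3 CPM in high-load kidneys and 19.2 to 38.8 CPM in controls. At that threshold 14% of all 15955 genes tested were higher and 10.2% were lower. Those shares are the background for the other marker counts below as well. In whole-organ RNA, fewer cells of a type and less RNA per cell cannot be told apart. The part of these marker differences in the results that follow was not tested.

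The comparison of high-load with control kidneys asked which isozyme of each step differed. The members that stood highest in high-load kidneys were scarce isozymes: the hexokinases Hk2, Hk3 and Hkdc1, and the enolase Eno2, at 3.29-fold to 7.65-fold. The platelet type phosphofructokinase Pfkp was 1.66-fold higher. The abundant forms of hexokinase and enolase, Hk1 and Eno1, had log2 fold changes of 0.18 and −0.28. Pfkm, the most abundant phosphofructokinase per kilobase of exon in controls, was at −0.21. By CPM Pfkp stood above Pfkm in every kidney, so Pfkp was not a scarce form by that measure. Towards the lower end stood the lactate carrier Slc16a1 and the mitochondrial D-lactate dehydrogenase Ldhd, at log2 fold changes of −0.74 and −0.83. Pdk4, the kinase induced by fasting, had the lowest log2 fold change of the members, −1.41, with a spread of its own within both groups.

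With edgeR's quasi-likelihood test and Benjamini-Hochberg adjustment, 0 of the 37 members passed an adjusted p of 0.05. The test called 3 of 15955 genes, which is 0.0188%. DESeq2 with its own filtering called 6 members, 5 higher and 1 lower. These were 13.5% and 2.7% of the members, against 6.67% and 3.88% of 16091 genes. With limma-voom 0 members and 0 genes were called. At an adjusted p of 0.1 in edgeR the members past the threshold were Eno2, Hk2 and Hkdc1, 8.11% of the members against 3.2% of all genes tested. At an unadjusted p under 0.05, 6 members were higher, 16.2% of them, against 14% of all genes. In the same test 2 members were lower, 5.41%, against 10.2% of all genes. At the unadjusted threshold the share of members was near that of all genes on the higher side and below it on the lower side. The median log2 fold change was −0.08 over the members and 0.01 over all genes tested. Scaled to library totals in place of edgeR's TMM factors, these medians were 0.03 and 0.13.

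An absolute log2 fold change of at least 1 was found for 5 members, 13.5%, against 8.39% of all genes. These were Hk2, Hk3, Hkdc1 and Eno2 on the higher side and Pdk4 on the lower side. A log2 fold change above 0 was found for 17 members, 45.9%, against 50.9% of all genes. All values of high-load kidneys lay above all control values for 6 members, 16.2%, against 17.1% of all genes. All values of high-load kidneys lay below all control values for Pgk1, Eno1, Ldha, Ldhd and Pdk2, which is 13.5% of the members against 15.8% of all genes. The plot of fold changes along the pathway shows the scarce hexokinases and Eno2 standing apart from a row of members close to 0.

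**Figure D1:**
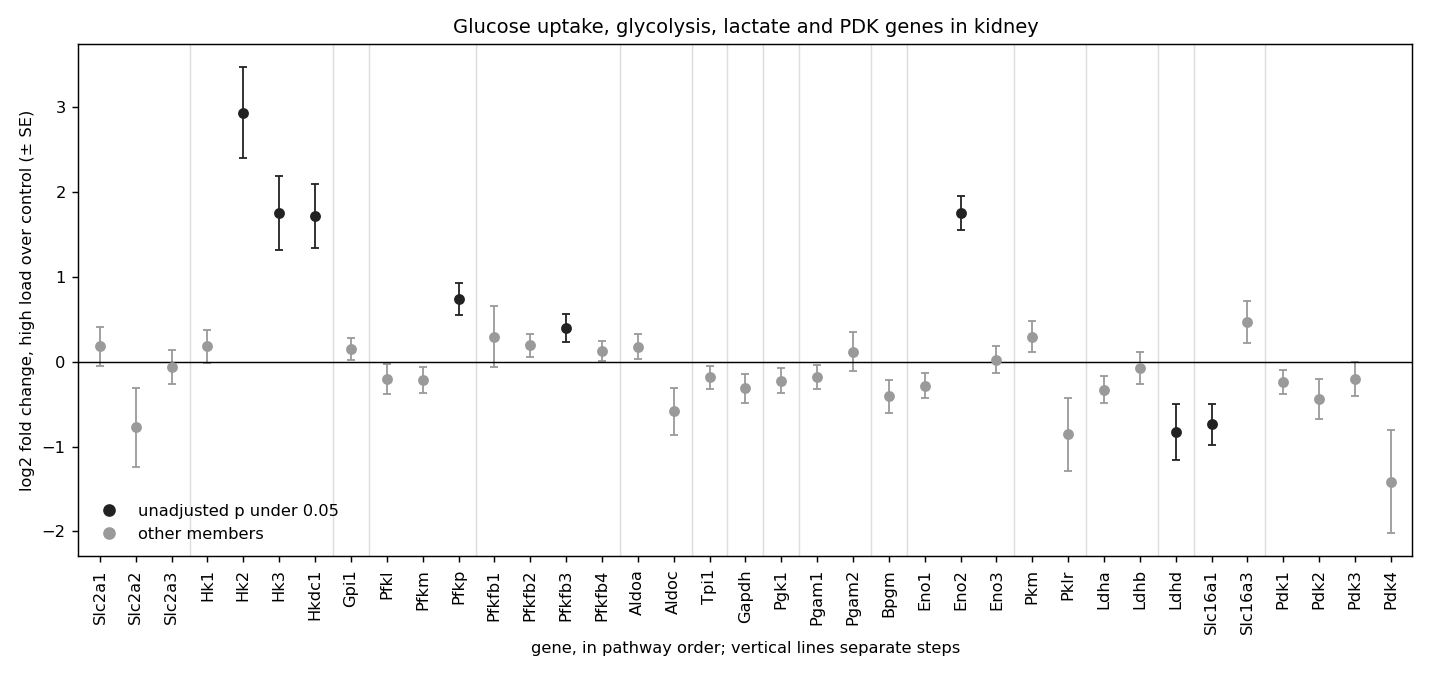
Log2 fold change, high load over control, of each of the 37 members in pathway order, from edgeR's quasi-likelihood fit; points are estimates, bars are ± SE, and black points have an unadjusted p under 0.05. Hk2 (2.94), Hk3 (1.75), Hkdc1 (1.72) and Eno2 (1.76) stand above the other members, and Pdk4 (−1.41) stands lowest with the widest bar.

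The 5 members that were higher at an unadjusted p under 0.05 in the full data and with any 1 of the 6 kidneys left out were Hk2, Hk3, Hkdc1, Pfkp and Eno2. In the fits with a kidney left out, 9.38% to 15.9% of all genes tested were higher at that threshold. The share of all genes that were higher in every fit was not computed. The promoters of these 5 members are shown because they met that rule. Each runs from 250 bases before to 50 bases after the gene start, 5′ to 3′ on the gene's strand, from RefSeq on GRCm38.p6. Capitals mark ACGTG or its reverse complement CACGT, the core of the element that hypoxia-inducible factors and other basic helix-loop-helix factors can bind.
Hk2, chr6:82774405-82774704, minus strand: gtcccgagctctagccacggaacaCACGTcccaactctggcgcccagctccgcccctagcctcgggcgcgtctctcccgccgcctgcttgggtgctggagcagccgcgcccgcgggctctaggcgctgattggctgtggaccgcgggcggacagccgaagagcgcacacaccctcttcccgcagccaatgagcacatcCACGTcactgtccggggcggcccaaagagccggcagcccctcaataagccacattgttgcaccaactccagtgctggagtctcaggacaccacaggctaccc
Hk3, chr13:55021336-55021635, minus strand: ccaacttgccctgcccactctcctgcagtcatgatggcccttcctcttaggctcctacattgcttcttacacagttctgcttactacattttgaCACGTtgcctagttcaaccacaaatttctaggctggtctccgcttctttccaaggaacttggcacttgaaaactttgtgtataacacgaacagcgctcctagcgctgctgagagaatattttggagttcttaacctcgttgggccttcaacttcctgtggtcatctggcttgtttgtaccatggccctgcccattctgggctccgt
Hkdc1, chr10:62422408-62422707, minus strand: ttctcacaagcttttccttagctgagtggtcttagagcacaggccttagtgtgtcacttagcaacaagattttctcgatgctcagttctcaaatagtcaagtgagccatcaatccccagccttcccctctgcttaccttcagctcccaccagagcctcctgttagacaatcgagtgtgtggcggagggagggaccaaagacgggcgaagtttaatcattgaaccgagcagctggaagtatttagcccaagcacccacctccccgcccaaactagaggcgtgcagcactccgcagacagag
Pfkp, chr13:6648722-6649021, minus strand: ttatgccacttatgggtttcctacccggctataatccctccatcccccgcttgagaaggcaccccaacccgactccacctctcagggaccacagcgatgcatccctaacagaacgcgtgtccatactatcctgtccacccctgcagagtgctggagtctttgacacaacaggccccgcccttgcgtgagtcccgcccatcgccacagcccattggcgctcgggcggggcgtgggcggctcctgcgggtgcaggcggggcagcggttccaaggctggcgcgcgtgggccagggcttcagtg
Eno2, chr6:124769624-124769923, minus strand: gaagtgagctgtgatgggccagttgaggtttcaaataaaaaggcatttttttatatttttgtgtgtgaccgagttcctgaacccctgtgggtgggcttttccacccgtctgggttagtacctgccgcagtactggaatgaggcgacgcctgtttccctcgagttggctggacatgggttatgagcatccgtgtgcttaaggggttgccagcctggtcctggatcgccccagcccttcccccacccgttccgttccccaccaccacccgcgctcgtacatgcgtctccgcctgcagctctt

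The Hk2 window held ACGTG on either strand in 2 places and the Hk3 window in 1. The windows of Hkdc1, Pfkp and Eno2 held no ACGTG, and other forms of the core were not searched for. GCGTG, which differs from ACGTG in the first letter, can be read in the printed windows of Hkdc1 and Pfkp and was not counted. Promoters were in the RefSeq table for 36 of the 37 members, and Slc2a3 is the remaining member. At least 1 promoter with ACGTG on either strand was found for 19 of 36 members, 52.8%, against 5886 of 27025 genes in the table, 21.8%, and 3325 of 12033 other tested genes, 27.6%. A gene with more promoters meets this rule more easily. Counted by promoter, ACGTG was in 23 of 56 for the members and in 6447 of 32851 in the table, 19.6%. The full palindrome CACGTG, which contains ACGTG on both strands, was found for 7 of 36 members, 19.4%, against 8.09% of genes in the table and 11.1% of other tested genes. TGATGNAAN on either strand, the core of the element bound by ATF4 with its partners, was found for 0 of 36 members, against 4.5% of genes in the table and 2.81% of other tested genes. The members that hold ACGTG include some that were higher (Hk2, Hk3, Pfkfb3), some that were lower (Ldhd, Slc16a1) and many that differed little, such as Hk1, Pkm, Aldoa and Gapdh. A match of these letters is a description of the window and not a site.

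Glucose enters by the carriers of the Slc2a family. Slc2a1, the basal transporter of most cells, was at 119.7, 61.1 and 83.1 CPM in high-load 1 to 3, against 79.5, 83.2 and 70.2 CPM in control 1 to 3. Slc2a2, the low-affinity exit carrier on the basal side of proximal tubule cells, was at 52.7, 179.5 and 114 CPM in high-load kidneys, against 232, 119.9 and 241 CPM in controls. Both ranges overlapped between the groups, and high-load 1 was highest for Slc2a1 and lowest for Slc2a2, as it was lowest for the proximal tubule markers. The log2 fold changes were 0.18 ± 0.23 (SE) for Slc2a1 and −0.77 ± 0.46 for Slc2a2, with edgeR quasi-likelihood adjusted p of 0.666 and 0.341. Without high-load 1 they were −0.10 and −0.42. Per kilobase of exon, Slc2a1 took 77.9%, 35.5% and 53.9% of the 3 carriers in high-load 1 to 3, against 35.8%, 52.7% and 32.1% in control 1 to 3. Slc2a3, a high-affinity carrier best known in neurons, stayed at 2.84 to 3.73 CPM in high-load kidneys and 3.49 to 3.70 CPM in controls.

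Hexokinases trap glucose in the cell by phosphorylation, and this step showed the widest differences between isozymes. Hk2, the insulin-responsive and hypoxia-responsive form typical of muscle and fat, was at 22.1, 5.75 and 8.91 CPM in high-load 1 to 3, against 1.50, 1.88 and 1.42 CPM in control 1 to 3. These levels rest on 467, 106 and 160 counts in high-load kidneys and on 27, 31 and 26 counts in controls. The lowest high-load kidney lay above the highest control, and the high-load kidneys differed widely among themselves. The means were 12.2 ± 8.66 CPM in high-load kidneys and 1.60 ± 0.25 CPM in controls (SD, n = 3 each). High-load kidneys were thus 7.65-fold higher, a log2 fold change of 2.94 ± 0.53 (SE), with an edgeR quasi-likelihood adjusted p of 0.0946 and a DESeq2 adjusted p of 2.21e-06. With any 1 kidney left out the log2 fold change was 2.2 to 3.28.

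The other cell types in which Hk2 is typical were looked at through their markers. The 6 adipocyte markers summed to 131, 37.2 and 0.724 CPM in high-load 1 to 3, against 1.39, 0.851 and 2.34 CPM in control 1 to 3. Only 1 of the 6 passed the filter on low counts, and it was higher at an unadjusted p under 0.05. High-load 1 was highest for both Hk2 and that sum. In high-load 3 the adipocyte sum lay below all controls while Hk2 lay above all of them. The 8 skeletal muscle markers summed to 5.44 to 21.9 CPM in high-load kidneys and 19.6 to 40.5 CPM in controls. Acta1 had 0 to 4 counts in a library, Ckm 0 to 3 and Myh4 0, and 3 of the 8 passed the filter. The 8 include Pvalb, which was also listed as a marker of the distal convoluted tubule, so this sum is not a measure of muscle alone. The part of these cell types in the Hk2 difference was not tested.

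Hkdc1, the hexokinase gene that lies 3.228 kb from Hk1 on chromosome 10, was at 20.1, 9.34 and 25.3 CPM in high-load kidneys, against 4.49, 6.87 and 5.28 CPM in controls. High-load 3 was highest and the groups did not overlap. The means were 18.2 ± 8.13 CPM in high-load kidneys and 5.55 ± 1.21 CPM in controls (SD, n = 3 each), a log2 fold change of 1.72 ± 0.38 (SE) with an edgeR quasi-likelihood adjusted p of 0.0998 and a DESeq2 adjusted p of 0.0006. Its neighbour Hk1, the form of most tissues that sits on the outer mitochondrial membrane, had levels that overlapped. Hk1 was at 240.4, 147 and 191 CPM in high-load kidneys, against 175, 185 and 149 CPM in controls. For Hk1 the log2 fold change was 0.18 ± 0.19 (SE), and it was −0.01 without high-load 1.

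Hk3, a form known from myeloid blood cells, was at 8.51, 5.92 and 3.28 CPM in high-load 1 to 3, against 2.55, 1.28 and 1.42 CPM in control 1 to 3. All high-load values lay above all control values. The log2 fold change was 1.75 ± 0.44 (SE), with an edgeR quasi-likelihood adjusted p of 0.113 and a DESeq2 adjusted p of 0.00487. Beside it, the macrophage and dendritic cell markers summed to 1503, 783 and 1043 CPM in high-load kidneys, against 577, 466 and 581 CPM in controls. The 7 neutrophil markers summed to 20.7, 7.93 and 31.2 CPM in high-load kidneys, against 6.99, 23.4 and 6.05 CPM in controls, with 0 to 4 counts in a library for Ly6g and 0 to 3 for Mpo, and 1 of the 3 that passed the filter was higher at an unadjusted p under 0.05. The part of the myeloid markers in the Hk3 difference was not tested. An exon of Hk3 overlaps an exon of Unc5a by 34 bases, and Unc5a was at 3.23 to 7.61 CPM in high-load kidneys and 2.92 to 4.14 CPM in controls.

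Measured per kilobase of exon, Hk1 remained the main hexokinase in every kidney but with a smaller share under high load. Hk1 took 73.9%, 79.7% and 75.3% of the 4 hexokinases in high-load 1 to 3, against 91.8%, 91.6% and 91.4% in control 1 to 3. The control kidneys agreed within 1 percentage point of each other, and the gap between the groups was far wider. Hkdc1 took the largest share of the scarce forms, 11.8% ± 4.29 in high-load kidneys and 4.98% ± 0.923 in controls (SD, n = 3 each). Hk2 took 6.40% ± 2.87 in high-load kidneys and 1.23% ± 0.103 in controls. Hk3 took 5.51% ± 2.27 in high-load kidneys and 2.19% ± 0.838 in controls. In the stacked shares for 6 steps, the main form had a smaller share in all 3 high-load kidneys for hexokinase and for the lactate carriers, while the shares of Slc2a1, Pkm and Pdk2 overlapped between the groups.

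**Figure D2:**
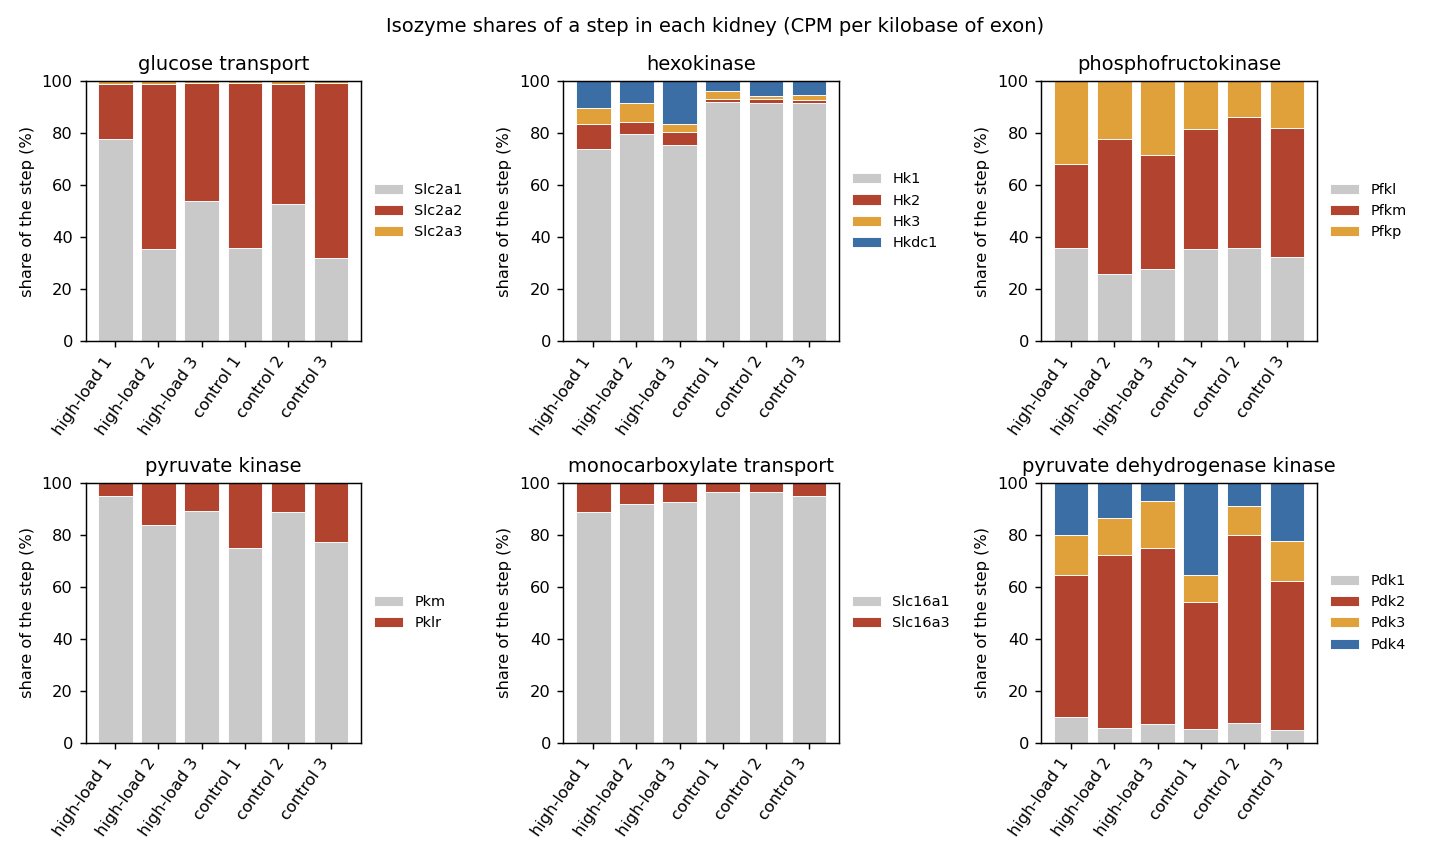
Share of each isozyme in its step (percent of the summed CPM per kilobase of exon), 1 stacked bar per kidney with high-load 1 to 3 left of control 1 to 3, for 6 steps. Hk1 takes 73.9% to 79.7% of the hexokinases in high-load kidneys and 91.4% to 91.8% in controls, and the pyruvate dehydrogenase kinase bars overlap between the groups.

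Gpi1, which converts glucose phosphate to fructose phosphate, was at 647, 543 and 605 CPM in high-load kidneys, against 528, 545 and 549 CPM in controls, with a log2 fold change of 0.15 ± 0.13 (SE). Phosphofructokinase commits the sugar to glycolysis and exists as muscle, liver and platelet forms. Pfkp, the platelet form, was at 161, 100.2 and 151 CPM in high-load 1 to 3, against 90.6, 74.7 and 82.6 CPM in control 1 to 3. High-load 2 came closest to the controls without overlapping them. The means were 138 ± 32.7 CPM in high-load kidneys and 82.7 ± 7.95 CPM in controls (SD, n = 3 each), a log2 fold change of 0.73 ± 0.19 (SE) with an edgeR quasi-likelihood adjusted p of 0.115 and a DESeq2 adjusted p of 0.0126. Pfkm, the muscle form and the most abundant of the 3 per kilobase in controls, was at 40.9, 57.7 and 58.3 CPM in high-load kidneys, against 57.2, 67.1 and 57.4 CPM in controls. Pfkl, the liver form, was at 57.9 to 90.7 CPM in high-load kidneys and 74.2 to 94.9 CPM in controls. Per kilobase, Pfkp took 27.5% ± 4.77 of the 3 forms in high-load kidneys and 16.7% ± 2.39 in controls. An exon of Pfkp overlaps Pitrm1, which was at 47.7 to 57.6 CPM in high-load kidneys and 60.0 to 69.1 CPM in controls. The part of this overlap in the Pfkp counts was not tested.

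The Pfkfb enzymes make and degrade the sugar bisphosphate that is the main activator of phosphofructokinase. Pfkfb3, the form with the strongest kinase activity, was at 52.4, 39.3 and 33.51 CPM in high-load kidneys, against 31.4, 30.5 and 33.50 CPM in controls. The lowest high-load kidney and the highest control differed only in the last digit. The log2 fold change was 0.39 ± 0.16 (SE) with an unadjusted p of 0.0499 and an edgeR quasi-likelihood adjusted p of 0.206, and it was 0.20 without high-load 1. Pfkfb3 passed an unadjusted p of 0.05 in 1 of the 6 fits with a kidney left out, the fit without high-load 3. Pfkfb1, Pfkfb2 and Pfkfb4 overlapped between the groups, with log2 fold changes of 0.29, 0.19 and 0.13.

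**Figure D3:**
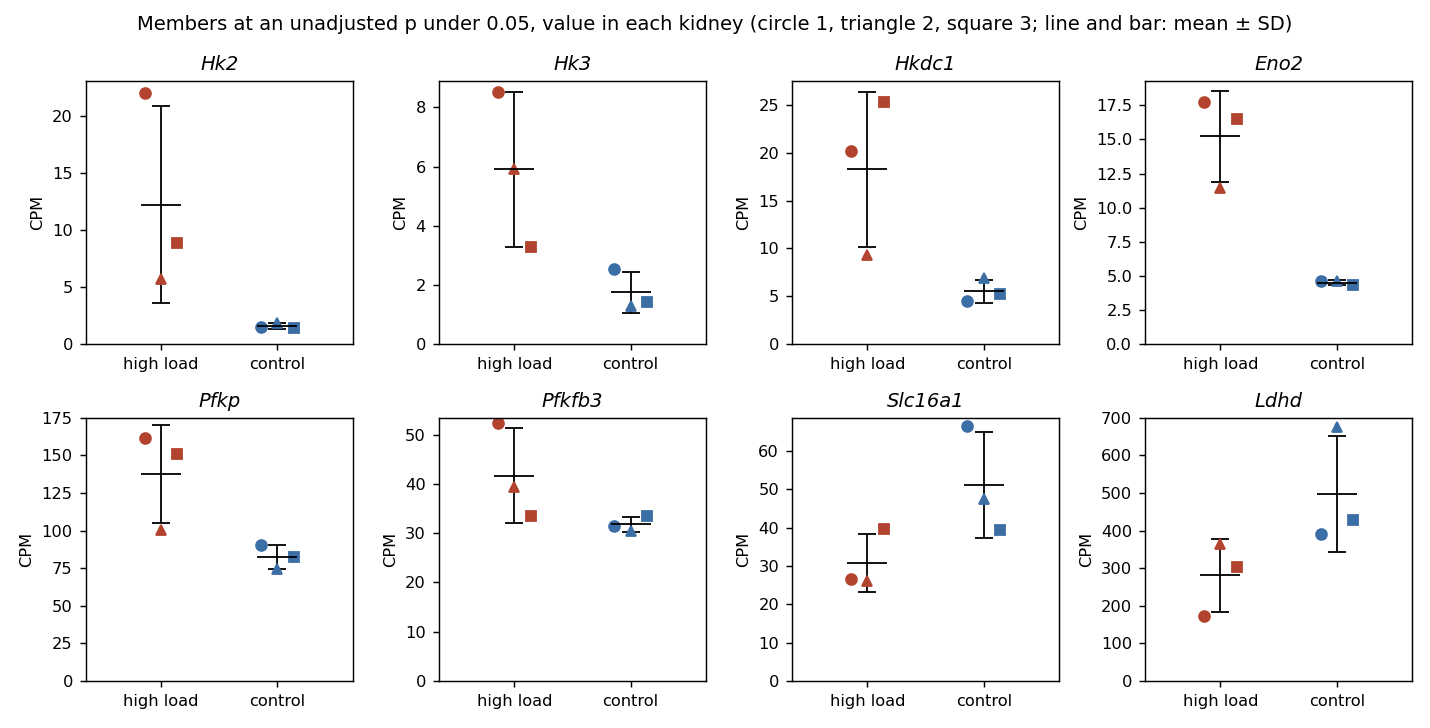
CPM in each kidney for the 8 members with an unadjusted p under 0.05, high load left of control, on linear axes that start at 0; circles, triangles and squares are replicates 1, 2 and 3, and lines with bars are means ± SD (n = 3 each). Hk2, Hk3, Hkdc1, Eno2 and Pfkp lie wholly above their controls and Ldhd wholly below, while Slc16a1 of high-load 3 (39.52 CPM) meets control 3 (39.50 CPM).

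Aldolase cleaves the sugar into triose phosphates. Aldoa, the form of muscle and most tissues, was at 1203, 1070.1 and 1229 CPM in high-load kidneys, against 989, 1095 and 1012 CPM in controls, with a log2 fold change of 0.18 ± 0.15 (SE). Aldoc, the brain form, was at 26.0, 14.6 and 13.9 CPM in high-load kidneys, against 25.6, 33.4 and 23.2 CPM in controls, with a log2 fold change of −0.59 ± 0.27. High-load 1 reached the controls for Aldoc and the other 2 high-load kidneys lay below them.

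The trunk of the pathway from triose phosphate to phosphoglycerate was slightly lower or level. Tpi1, the triose phosphate isomerase, was at 412, 449.6 and 488 CPM in high-load kidneys, against 462, 551 and 519.5 CPM in controls. Gapdh, which makes the NADH of glycolysis, was at 195, 226 and 159.8 CPM in high-load kidneys, against 228, 279.8 and 215 CPM in controls. Pgk1, which yields ATP, was at 321, 424 and 417 CPM in high-load kidneys, against 443, 466 and 451 CPM in controls, so that only Pgk1 of these 3 did not overlap. The log2 fold changes were −0.18 ± 0.14 (SE) for Tpi1, −0.31 ± 0.17 for Gapdh and −0.23 ± 0.15 for Pgk1, and the edgeR quasi-likelihood adjusted p was 0.442, 0.295 and 0.382. Sequence shared with other annotated transcripts, many of them pseudogenes, makes some of these counts uncertain, since 51.7% of the 100-base words of Pgk1 and 20.9% of those of Gapdh occur in another gene.

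Phosphoglycerate mutase moves the phosphate group before enolase acts. Pgam1, the form of most tissues, was at 145, 196 and 193 CPM in high-load kidneys, against 199, 188 and 216 CPM in controls. Of the 100-base words of Pgam1, 33.9% occur in another gene. Pgam2, the muscle form, was at 45.1, 67.6 and 86.6 CPM in high-load kidneys, against 66.8, 56.3 and 60.3 CPM in controls. Both overlapped between the groups. Bpgm, which makes the red cell regulator of haemoglobin, was at 29.0 to 34.8 CPM in high-load kidneys and 32.9 to 54.4 CPM in controls. Control 2 was highest for Bpgm and also for the 7 erythroid markers, with a sum of 2084 CPM, against 149 to 391 CPM in high-load kidneys and 268 to 272 CPM in the other 2 controls. Of the 6 erythroid markers tested, 0 were higher and 0 were lower at an unadjusted p under 0.05, and their part in the Bpgm values was not tested. Without control 2 the log2 fold change of Bpgm was −0.16, against −0.41 with it.

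Enolase makes phosphoenolpyruvate, and here the scarce and the abundant form stood on opposite sides. Eno2, known as the neuron-specific form, was at 17.7, 11.5 and 16.5 CPM in high-load 1 to 3, against 4.60, 4.62 and 4.30 CPM in control 1 to 3. The values rest on 375, 211 and 297 counts in high-load kidneys and on 83, 76 and 79 counts in controls. The controls were almost the same as each other, and every high-load kidney lay well above them. The means were 15.2 ± 3.33 CPM in high-load kidneys and 4.51 ± 0.177 CPM in controls (SD, n = 3 each), a log2 fold change of 1.76 ± 0.20 (SE), or 3.38-fold. Eno2 had the smallest p of the members, 5.86e-05 unadjusted, with an edgeR quasi-likelihood adjusted p of 0.0735 and a DESeq2 adjusted p of 5.37e-10. With any 1 kidney left out the log2 fold change was 1.64 to 1.93.

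The 6 neuron markers summed to 2.03 to 3.28 CPM in high-load kidneys and 2.49 to 3.55 CPM in controls, with 0 to 1 counts in a library for Elavl4 and 0 to 2 for Snap25. Of the 2 that passed the filter on low counts, 1 was higher at an unadjusted p under 0.05, and the part of neurons in the Eno2 difference was not tested. None of the 100-base words of Eno2 occurs in another annotated gene, while 20.4% of those of Eno1 do, which makes the Eno1 counts less certain. Eno2 lies 40.912 kb from Tpi1 on chromosome 6, and Tpi1 was not higher. Eno1, the form of most tissues, was at 601, 676 and 592 CPM in high-load kidneys, against 846, 699 and 726 CPM in controls. Its groups did not overlap, with a log2 fold change of −0.28 ± 0.15 (SE) and an edgeR quasi-likelihood adjusted p of 0.287. Eno3, the muscle form, was level at 12.0 to 14.5 CPM in high-load kidneys and 10.9 to 14.7 CPM in controls. Per kilobase Eno2 still made up only 2.59% ± 0.68 of the 3 enolases in high-load kidneys and 0.65% ± 0.05 in controls.

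Pyruvate kinase closes glycolysis. Pkm, whose gene gives the M1 and M2 forms of most tissues, was at 652, 424 and 506 CPM in high-load kidneys, against 436, 444 and 407 CPM in controls. Pklr, the form of liver, red cells and proximal tubule, was at 22.4, 53.7 and 39.3 CPM in high-load kidneys, against 95.4, 36.0 and 77.3 CPM in controls. For both genes the ranges overlapped, and high-load 1 was highest for Pkm and lowest for Pklr. The log2 fold changes were 0.30 ± 0.18 (SE) for Pkm and −0.86 ± 0.43 for Pklr, and without high-load 1 they were 0.12 and −0.58. Per kilobase Pkm took 89.3% ± 5.68 of the step in high-load kidneys and 80.3% ± 7.53 in controls (SD, n = 3 each), a difference about the size of the spread. The counts are per gene, so the M1 and M2 forms of Pkm were not told apart.

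Lactate dehydrogenase converts pyruvate and lactate into each other. Ldhb, the heart type subunit that favours lactate use, was the main form at 893, 1132 and 1311 CPM in high-load kidneys, against 1181, 1168 and 1169 CPM in controls. Ldha, the muscle type subunit that favours lactate production and a classical hypoxia target, was at 429.7, 362 and 386 CPM in high-load kidneys, against 449, 586 and 446 CPM in controls. All 3 high-load values of Ldha lay below the controls, by a narrow margin for high-load 1. The log2 fold changes were −0.08 ± 0.19 (SE) for Ldhb, or 0.03 when scaled to library totals, and −0.33 ± 0.16 for Ldha, with edgeR quasi-likelihood adjusted p of 0.827 and 0.255. Ldhb took 81.4%, 86.8% and 87.7% of the 2 subunits per kilobase in high-load kidneys, against 84.7%, 80.8% and 84.7% in controls.

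Ldhd, a mitochondrial enzyme that oxidises D-lactate, was at 174, 365 and 304 CPM in high-load 1 to 3, against 391, 675 and 429 CPM in control 1 to 3. The groups did not overlap, with means of 281 ± 97.4 CPM in high-load kidneys and 498 ± 154 CPM in controls (SD, n = 3 each). The log2 fold change was −0.83 ± 0.33 (SE), with an unadjusted p of 0.0409, an edgeR quasi-likelihood adjusted p of 0.19 and a DESeq2 adjusted p of 0.0666. High-load 1 was lowest for Ldhd and for the proximal tubule sum, and without it the log2 fold change was −0.57. Exons of Ldhd overlap exons of Znrf1 on the opposite strand, and 38.4% of the 100-base words of Ldhd occur in another gene. Znrf1 was at 56.5, 42.9 and 43.7 CPM in high-load kidneys, against 37.2, 35.8 and 35.7 CPM in controls. The part of this overlap in the Ldhd counts was not tested. Whether the counting used strand is not stated in the labels.

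Lactate and pyruvate cross membranes by monocarboxylate carriers. Slc16a1, the common carrier MCT1, was at 26.5, 26.2 and 39.52 CPM in high-load 1 to 3, against 66.5, 47.5 and 39.50 CPM in control 1 to 3. High-load 3 met control 3, and the other high-load kidneys lay below all controls. The means were 30.7 ± 7.61 CPM in high-load kidneys and 51.2 ± 13.9 CPM in controls (SD, n = 3 each), a log2 fold change of −0.74 ± 0.24 (SE) with an edgeR quasi-likelihood adjusted p of 0.15 and a DESeq2 adjusted p of 0.0468. Slc16a3, the lactate exporter MCT4 of glycolytic cells, was at 4.02, 2.82 and 3.84 CPM in high-load kidneys, against 3.00, 2.13 and 2.62 CPM in controls. High-load 2 of Slc16a3 lay within the controls, and the log2 fold change was 0.46 ± 0.25. Per kilobase Slc16a3 took 11.2%, 8.24% and 7.48% of the 2 carriers in high-load kidneys, against 3.61%, 3.60% and 5.22% in controls.

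The pyruvate dehydrogenase kinases shut pyruvate out of oxidation, and 0 of the 4 genes was higher on average. Pdk2, the most abundant form per kilobase, was at 130.4, 249 and 214 CPM in high-load kidneys, against 264, 287 and 255 CPM in controls. All 3 high-load values lay below the controls, with high-load 1 far below and high-load 2 close to them. The log2 fold change of Pdk2 was −0.44 ± 0.23 (SE), with an edgeR quasi-likelihood adjusted p of 0.289, and it was −0.21 without high-load 1. Pdk4, the form induced by fasting and fatty acids, was at 53.3, 57.2 and 25.2 CPM in high-load kidneys, against 212, 38.7 and 111 CPM in controls. Control 2 lay among the high-load values, so the groups overlapped. Pdk4 had a log2 fold change of −1.41 ± 0.61, with an edgeR quasi-likelihood adjusted p of 0.212. It was −0.73 without control 1 and −1.84 without control 2.

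Pdk1, a hypoxia-responsive form, was at 59.2, 51.4 and 55.6 CPM in high-load kidneys, against 69.9, 73.6 and 52.7 CPM in controls. Pdk3, the remaining form, was at 30.2, 43.2 and 45.6 CPM in high-load kidneys, against 45.3, 36.9 and 54.6 CPM in controls. Both overlapped, with log2 fold changes of −0.24 ± 0.14 (SE) and −0.20 ± 0.20. Summed per kilobase, the 4 kinases reached 75.8, 118.5 and 99.9 in high-load kidneys, against 170.4, 125.7 and 140.4 in controls. All 3 high-load sums lay below the controls, and Pdk2 was the largest part of the sum in every kidney.

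A ratio of 2 genes within a kidney does not depend on how libraries are scaled to each other. Over 22 pairs of isozymes, 6 ratios were higher in all 3 high-load kidneys, 2 were lower in all 3, and 14 overlapped. With 3 kidneys against 3 the exact two-sided permutation test cannot give a p below 0.1, and those 8 pairs reached it, with an adjusted p of 0.275 over the 22 pairs. The same count over pairs of other genes was not made. Of all single genes tested, 17.1% lay wholly above the controls and 15.8% wholly below. The pairs of Hk2, Hk3 and Hkdc1 also share Hk1, so they are not independent. The widest differences in the log2 ratio were those of Hk2 to Hk1, at −4.17 ± 0.65 in high-load kidneys and −6.71 ± 0.12 in controls (SD, n = 3 each), and of Eno2 to Eno1, at −5.37 ± 0.44 in high-load kidneys and −7.38 ± 0.14 in controls. Hk3 to Hk1, Hkdc1 to Hk1, Slc16a3 to Slc16a1 and Pfkp to Pfkm followed, with differences of 1.55, 1.46, 1.18 and 0.94. The ratios of Aldoc to Aldoa and of Ldhd to Ldhb were lower, by differences of −0.81 and −0.76.

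Other pairs overlapped between the groups. The ratio of Ldha to Ldhb, a common measure of a turn to lactate production, differed by −0.23 on the log2 scale (exact permutation p = 0.4). The ratio of Pkm to Pklr differed by 1.1 (exact permutation p = 0.2) and that of Slc2a1 to Slc2a2 by 1.00 (exact permutation p = 0.3). In these 2 pairs high-load 1 lay far above all other kidneys and high-load 2 lay within the controls, and without high-load 1 the differences were 0.59 and 0.28. The kinase ratios Pdk1, Pdk3 and Pdk4 to Pdk2 differed by 0.26, 0.28 and −0.70 with exact permutation p of 0.7, 0.3 and 0.4.

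**Figure D4:**
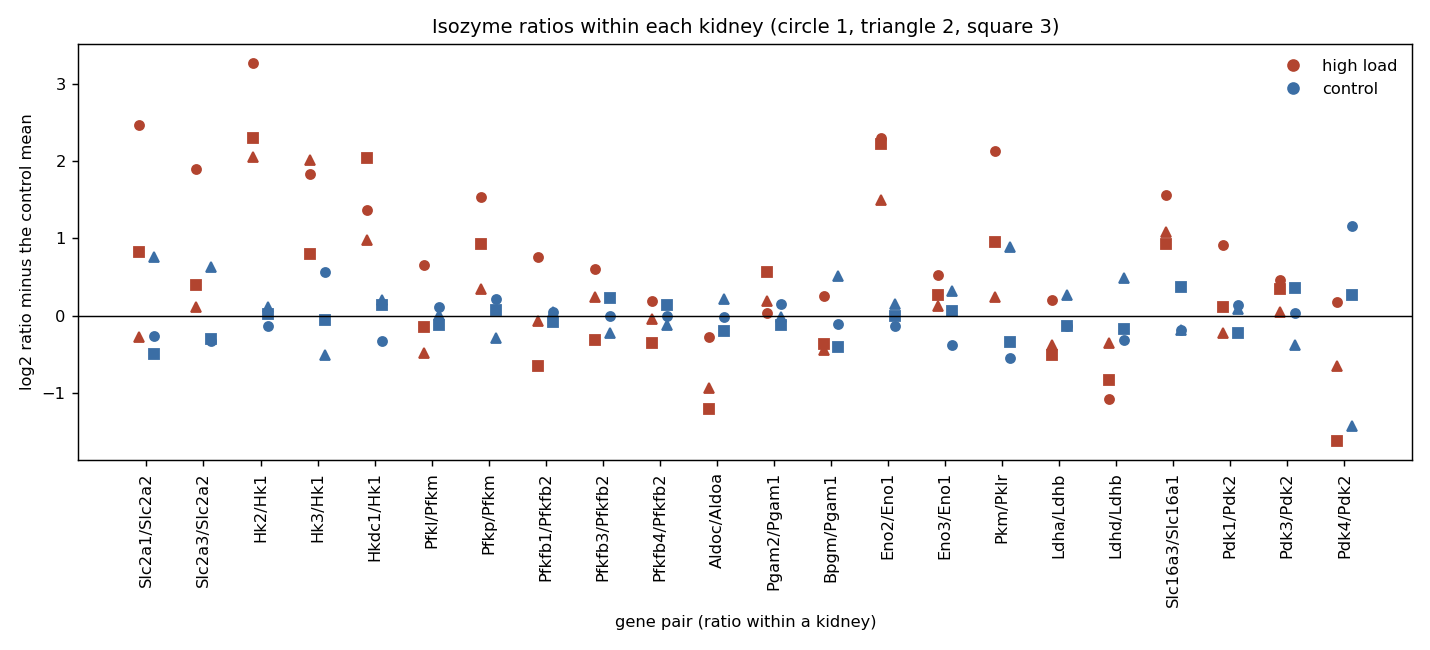
Log2 ratio of 2 isozymes within each kidney, minus the mean of the controls, for 22 pairs; red marks are high-load kidneys, left of the blue controls, and circles, triangles and squares are replicates 1, 2 and 3. For Hk2/Hk1 and Eno2/Eno1 all red marks stand above 1, while Ldha/Ldhb and the Pdk pairs overlap.

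The genes around the module were read from lists, none of which held a gene past an edgeR quasi-likelihood adjusted p of 0.05. Of 11 genes for the pyruvate dehydrogenase complex, its phosphatases and pyruvate entry, 0 were higher and 6 were lower at an unadjusted p under 0.05, against 14% and 10.2% of all genes. Their median log2 fold change was −0.44. The shares of 14% and 10.2% are the background for the list counts that follow as well. Pdpr, a regulator of the phosphatase that switches the complex on, was at 14.9, 17.6 and 13.8 CPM in high-load kidneys, against 25.0, 32.8 and 26.3 CPM in controls. Pdha1, the catalytic subunit that the kinases phosphorylate, was at 192, 243 and 254 CPM in high-load kidneys, against 309, 358 and 299 CPM in controls. Pcx, which carboxylates pyruvate to oxaloacetate, was at 152, 326 and 236 CPM in high-load kidneys, against 452, 653 and 424 CPM in controls. None of these 3 overlapped between the groups. The edgeR quasi-likelihood adjusted p was 0.0936 for Pdpr, 0.137 for Pdha1 and 0.126 for Pcx.

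Of 12 gluconeogenic and fructose enzymes, 1 was higher and 5 were lower at an unadjusted p under 0.05, with a median log2 fold change of −0.92. The higher gene was Pck2, the mitochondrial phosphoenolpyruvate carboxykinase, at 59.8, 44.5 and 47.0 CPM in high-load kidneys, against 35.7, 30.9 and 31.8 CPM in controls. Sord, which turns sorbitol into fructose, was at 485, 969.9 and 773 CPM in high-load kidneys, against 1281, 1715 and 1158 CPM in controls. Proximal tubule markers stand beside this list, with 0 of 15 higher, 4 of 15 lower and a median log2 fold change of −0.87. Their part in it was not tested. Of 10 other glucose transporters and sodium-glucose carriers, 1 was higher and 1 was lower by the same rule. The higher gene was Slc2a6, a lysosomal carrier of myeloid cells, at 9.64, 3.26 and 4.79 CPM in high-load kidneys, against 1.78, 1.52 and 1.63 CPM in controls.

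Of 15 monocarboxylate carriers and their chaperones, 1 was higher and 7 were lower at an unadjusted p under 0.05, with a median log2 fold change of −0.40. Slc5a8, a sodium-coupled lactate carrier of the proximal tubule brush border, was at 40.1, 69.5 and 47.2 CPM in high-load kidneys, against 100.2, 201 and 118 CPM in controls. Emb, a chaperone of monocarboxylate carriers, was at 57.0, 46.0 and 60.6 CPM in high-load kidneys, against 39.9, 36.0 and 32.3 CPM in controls. Neither gene overlapped between the groups. Of 10 genes of the NADH shuttles, 0 were higher and 2 were lower, among them the aspartate-glutamate carrier Slc25a13 at 73.7, 87.4 and 84.7 CPM in high-load kidneys, against 121, 118 and 111 CPM in controls.

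The branches that leave glycolysis were read in the same way. Of 8 pentose phosphate genes tested of 10 listed, 0 were higher and 0 were lower at an unadjusted p under 0.05, with a median log2 fold change of 0.06. G6pdx, which opens that branch, was at 79.9, 49.7 and 57.2 CPM in high-load kidneys, against 50.7, 47.6 and 46.8 CPM in controls. Of 15 glycogen genes, 3 were higher and 2 were lower. Pgm1, which links glucose phosphate to glycogen, was at 62.4, 68.0 and 66.6 CPM in high-load kidneys, against 83.1, 98.6 and 82.9 CPM in controls. Gyg, which primes glycogen, was at 39.6, 40.2 and 46.3 CPM in high-load kidneys, against 31.6, 33.5 and 32.5 CPM in controls. Of 5 tested glycolysis paralogs outside the module, of 10 listed, 0 were higher and 1 was lower by the same rule, while Ldhal6b, Ldhc and Pgk2 were at 0 in every library.

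Of 26 regulators of glycolysis and PDK genes, 3 were higher and 8 were lower at an unadjusted p under 0.05, with a median log2 fold change of −0.25. Myc, a transcription factor that drives glycolytic genes in growing cells, was at 37.9, 21.7 and 26.6 CPM in high-load kidneys, against 13.7, 15.7 and 14.2 CPM in controls. Ppara, the fatty acid receptor known to induce Pdk4, was at 12.5, 17.8 and 11.6 CPM in high-load kidneys, against 32.8, 44.2 and 24.4 CPM in controls. Esrrb, an oestrogen-related receptor, was at 37.4, 33.6 and 29.0 CPM in high-load kidneys, against 52.8, 60.7 and 52.0 CPM in controls. The groups did not overlap for any of these 3, and the edgeR quasi-likelihood adjusted p was 0.0981 for Myc, 0.0967 for Ppara and 0.0936 for Esrrb. Myc is also a gene of early response to handling of tissue. Of 11 immediate early genes 7 were higher at an unadjusted p under 0.05, against 14% of all genes. They summed to 494, 252 and 276 CPM in high-load kidneys, against 246, 169.6 and 204 CPM in controls. The part of tissue handling in the Myc difference was not tested. Of 15 tested hypoxia target genes outside glycolysis, 1 was higher and 3 were lower, with a median log2 fold change of −0.12. Bnip3, a mitophagy gene of that list, was at 86.8, 98.8 and 84.7 CPM in high-load kidneys, against 127, 144 and 114 CPM in controls.

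Called by DESeq2 with its own filtering, 5 members were higher, 13.5%, against 6.67% of 16091 genes, and 1 was lower, 2.7%, against 3.88%. The higher members were Hk2, Hk3, Hkdc1, Eno2 and Pfkp, and the lower member was Slc16a1. In edgeR the fit without high-load 2 called Hk2, Hkdc1, Pfkp and Eno2, with quasi-likelihood adjusted p of 0.0245, 0.0187, 0.0228 and 0.0143, while in each of the other 5 fits that left out a kidney 0 members passed. The fit without high-load 2 also called more of all genes, 807 of 16283, where the full data gave 3 of 15955. High-load 2 had the lowest Hk2, Hkdc1, Pfkp and Eno2 of the high-load kidneys. Of the remaining members with an unadjusted p under 0.05 in the full data, Slc16a1 passed it in 3 of the 6 fits with a kidney left out, Ldhd in 2 and Pfkfb3 in 1.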

How the data were processed

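RNA of 6 whole mouse kidneys (TRIzol) was made into TruSeq RNA libraries and read as 150 bp pairs on a DNBSEQ instrument, per the labels' protocols. The authors deposited 1 table of raw counts with Ensembl IDs as its lines and 6 kidneys as its columns. Named in the submitters' processing notes are featureCounts 2.0.1, SAMtools 1.11, HISAT2 2.2.1, fastp 0.23.2, edgeR and build mm10. How reads with several matches, strand and annotation were handled is not given in the sources used, so counts of overlapping genes and of near-identical copies are uncertain.

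Groups, replicate numbers and loads came from the labels. Of 32285 IDs, 32235 had a symbol. A second ID with the symbol Aldoa (6 to 15 counts) was not used. Pairs of libraries within a group had a chi-square of 19.98 to 93.11 per degree of freedom, where counting noise gives 1. No library was therefore treated as a second sequencing run of another. This value cannot tell separate animals from separate preparations. In R 4.3.3, edgeR 4.0.16 was run on all 6 libraries with filterByExpr (minimum count 10), TMM scaling (factors 0.994 to 1.139 in high-load and 0.9441 to 0.9738 in control libraries), a robust quasi-likelihood fit on group, two-sided tests and Benjamini-Hochberg adjustment over 15955 genes at 0.05. The biological coefficient of variation was 22.97%. CPM used TMM-scaled library sizes, and levels per kilobase used the union of exons in GENCODE M21. Isozyme log2 ratios had 0.5 added to each count and an exact two-sided permutation test. The result of 1 planned pair is not reported here.

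The members and lists were chosen with earlier results of these data known. Named with values per kidney were members at an unadjusted p under 0.05, the most abundant gene of each step and Pdk1 to Pdk4; lists were named by up to 3 genes of smallest p with a mean of at least 1 CPM. Shared sequence was the share of a gene's 100-base words found in another annotated gene. Alternatives were other scalings, filters, thresholds and ratio pseudocounts, DESeq2 1.42.0, limma-voom 3.58.1, the replicate number as a block, load as a number and each library left out. DESeq2 limited to the genes that edgeR tested, and member counts at an unadjusted p under 0.05 with each library left out, were added after seeing the data.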

Additional observations from a re-analysis of the deposited data

How the results depend on the processing

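The edgeR count of 3 genes called depended on the method: it was 50 with no filter on low counts, 10 with load as a number, 511 at an adjusted p of 0.1, 0 with limma-voom, 1698 with DESeq2's own filtering and 1711 with DESeq2 limited to the genes that edgeR tested. It ranged from 0 to 807 with 1 kidney left out, with 807 without high-load 2. The count of 0 members called became 1 with no filter, 3 at an adjusted p of 0.1, and 6 with DESeq2 under either filtering, and it ranged from 0 to 4 with 1 kidney left out. With the replicate number as a block, 1 gene and 0 members were called. Deviations of same-numbered kidneys correlated at 0.121, −0.191 and 0.0543, and those of kidneys with different numbers at −0.285 to 0.319. No pairing by number was seen, but so few kidneys cannot exclude one. Scaling to library totals shifted the median log2 fold change of all genes to 0.13. Under it the median was 0.030 over the members, 0.20 over glycolysis paralogs, 0.20 over pentose phosphate genes, 0.020 over glycogen genes and −0.0070 over hypoxia targets, and Slc2a3 was at 0.06 and Ldhb at 0.030. The paralog median of 0.08 was 0.17 with no filter, −0.053 with a stricter filter and 0.17 with DESeq2. With 3 added to each count, the log2 ratio of Pfkfb1 to Pfkfb2 differed by −0.000379. The cause of these shifts was not tested. With 1 kidney left out, medians ranged from −0.19 to −0.056 over members, −0.025 to 0.12 over pentose phosphate genes, −0.22 to 0.0020 over glycogen genes and −0.24 to −0.054 over hypoxia targets. Log2 fold changes that changed sign ranged from −0.10 to 0.39 for Slc2a1, −0.13 to 0.053 for Slc2a3, −0.0078 to 0.34 for Hk1, −0.13 to 0.50 for Pfkfb1, −0.12 to 0.34 for Pgam2, −0.084 to 0.13 for Eno3 and −0.21 to 0.062 for Ldhb. Ratio differences that changed sign ranged from −0.32 to 0.25 for Pfkl to Pfkm, −0.36 to 0.34 for Pfkfb1 to Pfkfb2, −0.037 to 0.42 for Pfkfb3 to Pfkfb2, −0.20 to 0.070 for Pfkfb4 to Pfkfb2, −0.41 to 0.070 for Bpgm to Pgam1 and −0.061 to 0.51 for Pdk1 to Pdk2. All of these small differences overlapped between the groups. With 3 kidneys in each group no exact test of a ratio could pass 0.05, and scarce members such as Hk2 in controls rest on 26 to 31 counts.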
